A study of Mus musculus with 4 samples.

Results

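The adult mouse prostate libraries of this study, sorted for the epithelial surface protein EPCAM, also held cells with the transcripts of myeloid cells. These cells were chosen from their own counts. Among cells with more than 750 and fewer than 7500 detected genes and under 10% mitochondrial unique molecular identifiers (UMIs), a cell was a member if it had at least 1 UMI of Ptprc, at least 3 UMIs of Tyrobp and Fcer1g together, and none of Cd3d, Cd3e or Cd3g. By this rule, 564 of 8532 adult cells (6.61%) were members. They numbered 131 of 1891 cells in run 1, 432 of 4398 in run 2 and 1 of 2243 in run 3, so that the results below come from runs 1 and 2.

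The animals were P2-Runx1:RFP reporter mice of the ICR (CD-1) strain, more than 8 weeks old, in which the proximal P2 promoter of Runx1 drives a red fluorescent protein (RFP). Castration, which removes the main source of androgens, had been done more than 4 weeks before in the castrated mice, and mice of both treatments carried the reporter. From each lobe, namely the anterior prostate (AP), the dorsolateral prostate (DLP) and the ventral prostate (VP), live EPCAM+ cells were sorted as RFP+ or RFP-, tagged with 1 lipid-anchored MULTI-seq oligo per sorted population, and pooled for droplet capture. Run 1 pooled 4 intact and 4 castrated mice, with the castrated lobes mixed, run 2 pooled 3 intact and 5 castrated mice with lobes kept apart, and run 3 pooled 4 intact mice. Each run was 1 library, so the mice within it could not be told apart. The intact DLP RFP+ tag failed in runs 1 and 2.

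Ptprc encodes CD45, the phosphatase on the surface of all white blood cells. Tyrobp (DAP12) and Fcer1g are adaptor proteins that carry activating signals from receptors of myeloid and natural killer cells. Myeloid cells of a tissue include macrophages, which engulf debris and make complement proteins, monocytes, which arrive from blood, and dendritic cells, which display peptides on MHC class II. Conventional dendritic cells of type 1 (cDC1) carry the chemokine receptor XCR1 and the dead-cell receptor CLEC9A, and mature dendritic cells gain CCR7, which guides them to lymph nodes. RUNX1 and PU.1 are transcription factors of blood cell development, and Runx1 is itself expressed in many blood cells.

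The tags that assigned most members to a population are shown because each statement on lobe, gate or treatment rests on them. The capitals mark the 8 bases that identify the tag, and the oligos are given 5′ to 3′.
Intact AP RFP+, runs 1 and 2: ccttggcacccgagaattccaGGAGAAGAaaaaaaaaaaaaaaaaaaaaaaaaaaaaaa
Castrated AP RFP+, run 2: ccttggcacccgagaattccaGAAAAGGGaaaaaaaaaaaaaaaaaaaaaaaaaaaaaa
Intact DLP RFP+, failed in runs 1 and 2: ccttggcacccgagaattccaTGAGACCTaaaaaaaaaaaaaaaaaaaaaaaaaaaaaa
The castrated AP oligo of run 2 had marked the pooled castrated RFP+ cells in run 1.

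The promoter that drives the reporter is shown because the RFP gate reads its activity. These are the 250 bases before the proximal RefSeq start of Runx1 on the minus strand, at chr16:92697330-92697579 of GRCm38.p6, with capitals on the single match to GAGGAA or its reverse complement TTCCTC, the core letters bound by PU.1.
Runx1 P2: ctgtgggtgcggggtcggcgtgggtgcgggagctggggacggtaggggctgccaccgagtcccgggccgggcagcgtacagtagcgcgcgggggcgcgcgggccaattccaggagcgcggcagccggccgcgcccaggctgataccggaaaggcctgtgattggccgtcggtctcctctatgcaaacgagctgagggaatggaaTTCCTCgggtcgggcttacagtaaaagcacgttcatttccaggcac
The match began 46 bases before the start, and 23.3% of 32851 RefSeq promoter windows of this length held these letters on either strand. The RUNX core TGTGGT or ACCACA was not found in the window, against 14.0% of all windows. A match is a description of the letters and not of a bound site.

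Members were shallower than the other cells. Their median was 6530 UMIs in run 1 and 8126.5 in run 2, against 11206 and 11033 in the other cells, and their summed counts were 1136672 and 4863866 UMIs. The single member of run 3 held 5121 UMIs. Members had a median of 4 Ptprc UMIs (1 to 16) and 16 UMIs of Tyrobp and Fcer1g (3 to 84). At the threshold, 13 members had exactly 3 UMIs of the adaptor genes, whereas 11 cells had 2 and were left out. A further 55 cells met the adaptor criterion with no Ptprc UMI, and 24 failed through a Cd3 UMI. Cell barcodes were shared by 0 pairs of members of different runs. In the library of cultured urogenital sinus explants, 0 of 6608 cells met the rule, which allows a share of up to 0.0454% (3 cells). The reference cells were 74 Cd3-positive cells, with at least 2 Cd3 UMIs, and 7227 EPCAM-type cells, with an Epcam UMI and no Ptprc UMI.

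Most members with a usable tag came from the RFP+ fraction of the intact AP, and their number differed widely between runs. Members made up 33 of 466 intact AP RFP+ cells in run 1 (7.08%, exact binomial 95% interval 4.92 to 9.80), 177 of 452 in run 2 (39.2%, 34.6 to 43.8) and 0 of 388 in run 3, which allows a share of up to 0.773% (3 cells). In the intact AP RFP- fraction they were 2 of 175, 3 of 220 and 0 of 237 cells, the last allowing up to 1.27%. In the intact VP, they were 2 of 79 RFP+ cells in run 1 and 9 of 282 in run 2, with 0 of 19 and 0 of 153 among the RFP- cells, which allow up to 15.8% and 1.96%. The intact DLP RFP- fraction held 2 of 67 and 2 of 126. These intervals cover counting error only, and the numbers of cells pooled per population were set by the experimenters.

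**Figure D1:**
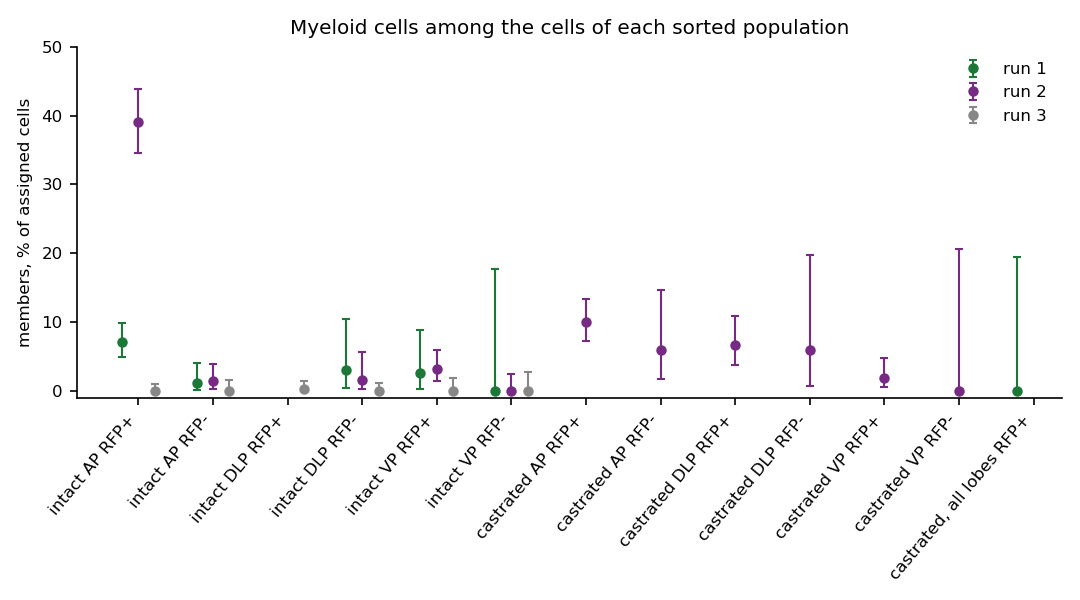
Share of members among the assigned cells of each sorted population, in percent, for populations with at least 10 assigned cells. Points are runs and bars are exact binomial 95% intervals. The intact AP RFP+ population of run 2 stands at 39.2%, above 7.08% in run 1 and 0 in run 3, and castrated AP RFP+ cells of run 2 stand at 10.0%.

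Within the intact AP and VP, where both gates had a working tag in every run, the assigned members were nearly all RFP+. The RFP+ share of members was 35 of 37 (94.6%) in run 1 and 186 of 189 (98.4%) in run 2, whereas EPCAM-type cells of the same lobes were 74.4%, 58.4% and 62.8% RFP+ in runs 1, 2 and 3. The mean difference over the 2 runs with members was 30.1 percentage points, in the same direction in 2 of 2 runs (exact permutation test over runs, two-sided p = 0.5, the smallest this design allows). Cd3-positive cells of run 2 were RFP+ in 31 of 31 cases, and castrated members in 60 of 66 (90.9%), beside 88.1% of castrated EPCAM-type cells. The call behind these shares rested on tags of modest purity. Among members called intact AP RFP+, the median count of their own tag was 59 in run 1 and 161 in run 2, against 38 and 64 for the largest other tag, and the own tag was the largest in 28 of 33 and 161 of 177. When a cell was instead called only if its largest tag held at least 80% of its tag counts, 5 and 9 members remained in these lobes, 1 and 6 of them RFP+, and the mean difference became -7.01 points.

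The call without any tag did not move one way. In runs 1 and 2 it may include cells of the intact DLP RFP+ population, whose tag failed there but not in run 3. In run 1, 46.6% of members and 30.5% of the other cells had no tag over its threshold, in run 2 these shares were 12.96% and 26.8%, and in run 3 the only member had a tag, beside 5.26% of the other cells without one. The mean difference was -1.02 points (exact permutation test over 3 runs, two-sided p = 1.0, where 0.25 is the smallest possible). More than 1 tag was called in 14.5% and 26.9% of members, beside 17.4% and 21.3% of the other cells.

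The profile of the members was that of antigen-presenting cells. All values here are counts per 1000000 UMIs (CPM) summed per run, and they describe cells that the rule had chosen from these counts. Cd74, the MHC class II invariant chain, stood at 23081 CPM in run 1 and 16863 in run 2, against 24.3 and 56.0 in EPCAM-type cells. H2-Ab1 and H2-Aa, which encode the MHC class II chains, stood at 8492 and 7073 CPM and at 5019 and 3654 CPM. Cathepsin S (Ctss), which trims the invariant chain, stood at 1386 and 613 CPM. Among the other leading genes by fold were Il1b, the inflammatory cytokine interleukin 1β, at 2324 and 1812 CPM, Alox5ap, needed for leukotriene synthesis, at 722 and 418 CPM, and the lectin Mgl2 at 502 and 251 CPM.

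The same 2 runs differed in which myeloid genes dominated. Lyz2, the lysozyme of macrophages and monocytes, stood at 10589 CPM in run 1 and 1893 in run 2, Retnla, a marker of alternatively activated macrophages, at 5570 and 977, and Chil3 at 253 and 4.52. Xcr1 stood instead at 17.6 CPM in run 1 and 110 in run 2, and Ccr7 at 17.6 and 157. The macrophage list summed to 13191 CPM in run 1 and 3070 in run 2, and the monocyte list to 1295 and 342 CPM. The cDC1 list was level, at 568 and 554.5 CPM, since Batf3 (149 and 48.7 CPM) and Irf8 (295 and 203 CPM) were lower in run 2, and the migratory dendritic cell list was at 599 and 818 CPM. The runs were different pools of mice, so that run and mice cannot be told apart.

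Of the genes with at least 50 CPM in a sum, 20.8% were at least 2-fold higher in members than in EPCAM-type cells in both runs and 6.82% at least 2-fold lower. The MHC class II list had 9 of its 9 genes at this level higher, the macrophage list 9 of 9, the chemokine list 13 of 14, the list of adaptor, Fc receptor and kinase genes 8 of 8 (among them Tyrobp and Fcer1g, which the rule itself used), and the complement list 4 of 4. Neutrophil, B cell and T cell genes were at or near 0. The 7 neutrophil genes summed to 28.2 and 22.8 CPM, with S100a9 at 0 in both runs, the 4 B and plasma cell genes to 7.04 and 3.70 CPM, and the 6 T cell genes to 14.96 and 5.14 CPM, of which the 3 Cd3 genes were at 0 by the rule. The mast cell genes summed to 9.68 and 52.0 CPM, nearly all of it Kit, with the mast cell protease Cpa3 at 0. The 3 endothelial genes summed to 29.9 and 12.1 CPM, beside 20.8 and 5.32 in EPCAM-type cells. The 12 natural killer and innate lymphoid genes summed to 251 and 201 CPM, beside 149 and 92.0 in EPCAM-type cells. The 5 fibroblast genes summed to 280 and 330 CPM, beside 1377 and 581 in EPCAM-type cells. Epithelial genes were not at 0. Their 9 genes summed to 1093 and 2638 CPM in members, beside 6252 and 5962 CPM in EPCAM-type cells, and the secretory transcript Sbp stood at 52318 and 46125 CPM.

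Graph clustering of the members gave 11 clusters, which are named only where the marker lists allowed it. Since the clusters were made from these counts, their genes are a description. Cluster 1 was cDC1-like (138 cells, 133 of them from run 2), with Xcr1 at 294 CPM, Clec9a at 132 and Irf8, the transcription factor that cDC1 need, at 498. The langerin gene Cd207 led the list of its genes at 270 CPM, whereas macrophage genes such as C1qa (0.81 CPM) and Mrc1 (0) were at or near 0. With nearly all of its cells in 1 library, it cannot be separated from that library. Cluster 2 was conventional dendritic cell-like (73 cells), with Cd209a at 1304 CPM, Clec10a at 390 and Cd74 at 40052. Cluster 5 was migratory dendritic cell-like (52 cells, 45 from run 2), with Ccr7 at 998 CPM, the actin-bundling gene Fscn1 at 113 and the chemokine Ccl22 at 329.

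Cluster 3 was named macrophage-like and cluster 10 monocyte-like, but genes of the macrophage list were high in further clusters too. Cluster 3 was macrophage-like (65 cells, 22 from run 1 and 43 from run 2), with C1qa at 5439 CPM, the growth factor receptor Csf1r at 582, the mannose receptor Mrc1 at 664 and Apoe, which carries lipid, at 24300. Cluster 10 was monocyte-like (23 cells), with Chil3 at 3109 CPM, Plac8 at 1910 and Lyz2 at 23650, and with C1qa at 122. Cluster 11 was plasmacytoid dendritic cell-like (19 cells), with Siglech at 1796 CPM, Bst2 at 3310, Ccr9 at 958 and Lyz2 at 0. Cluster 4 (58 cells, 36 from run 1) stayed unnamed and was led by Lyz1, Fn1, Retnla and Ccl6, with Lyz2 at 24866 CPM and C1qa at 186. The macrophage list summed to 18889 CPM in cluster 3, 26577 in cluster 4 and 25352 in cluster 10. In clusters 4 and 10 most of this sum was Lyz2. The monocyte list summed to 5925 CPM in cluster 10. Cluster 8 (26 cells) was led by genes of cell division, with Top2a at 508 CPM, and had Xcr1 at 175 CPM and Irf8 at 407.

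**Figure D2:**
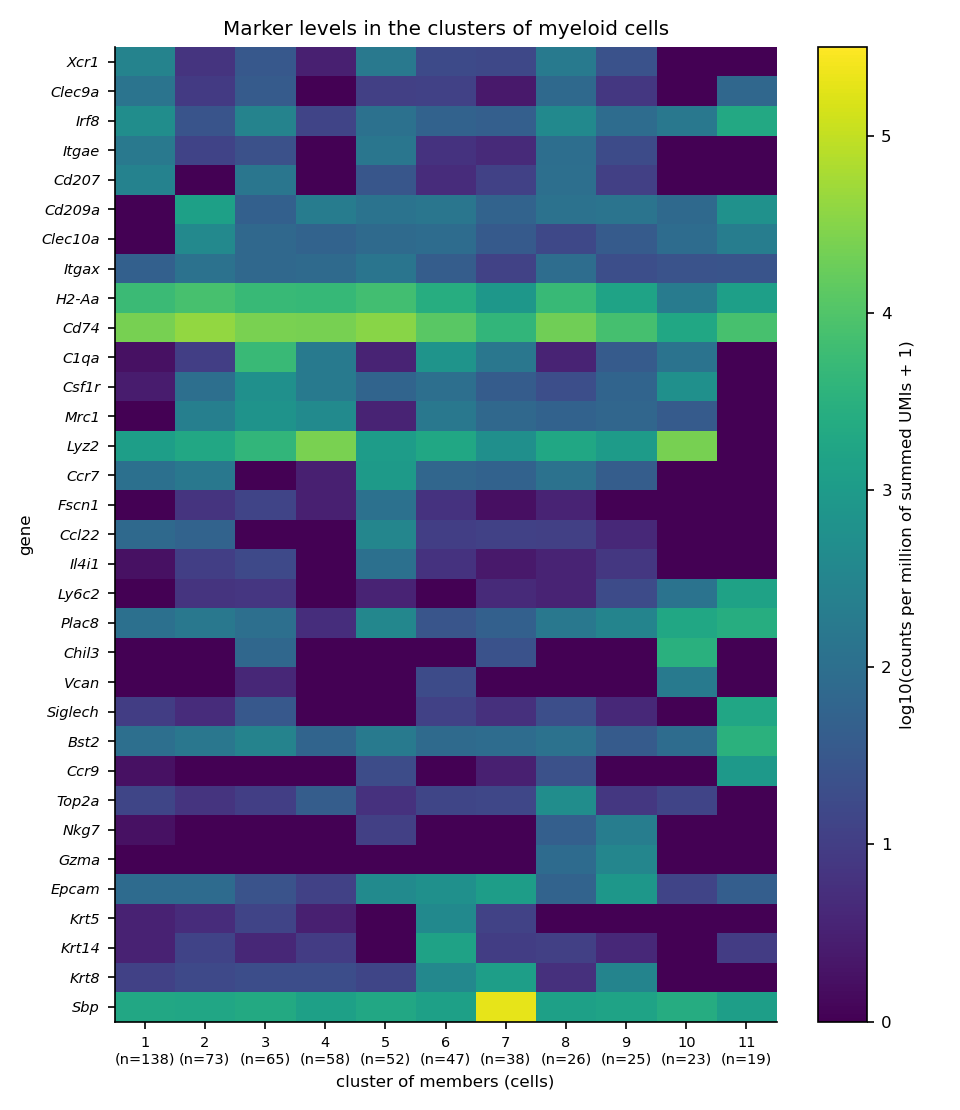
Level of marker genes (rows) in the 11 clusters of members (columns, with the number of cells), as log10 of CPM plus 1. Each named cluster holds its own markers, such as Xcr1 in cluster 1 (294 CPM), C1qa in cluster 3 (5439 CPM) and Siglech in cluster 11 (1796 CPM), while the keratins stand out in clusters 6 and 7 and Sbp in cluster 7.

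Clusters 6, 7 and 9, with 110 of the 564 members, mixed myeloid with epithelial transcripts and stayed unnamed. Cluster 6 (47 cells) was led by the basal keratins Krt14 and Krt15, cluster 7 (38 cells) by the secretory genes Sbp and Spink1, with Sbp at 193980 CPM, and cluster 9 (25 cells) by Ren1, Tgm4 and Xcl1. Several tags were called in 26 of 47, 25 of 38 and 8 of 25 of these cells. Taken as one, 53.6% of the 110 cells had more than 1 tag (exact binomial 95% interval 43.9 to 63.2), against 16.7% of the 454 other members (13.4 to 20.5), and their median depth was 16558 UMIs beside 7022. In cluster 9, 13 cells had a UMI of Ncr1, Klrb1c, Nkg7 or Gzma, genes of natural killer cells, and Gzma stood at 339 CPM. The part that doublets and natural killer cells play in these 3 clusters was not tested. Outside them, Sbp stood at 817 CPM in run 1 and 2121 in run 2, and the share of cells with a Sbp UMI at 2000 UMIs was above 70% in each of the clusters, as it was in EPCAM-type cells.

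Epcam, the gene of the protein used for the sort, was read beside the keratins of the same cells (Krt8, Krt18, Krt19, Krt5 and Krt14 together). The ratio in free RNA was not measured. EPCAM-type cells, which were chosen by an Epcam UMI, had 23.4 Epcam UMIs per 100 keratin UMIs in run 1 and 26.1 in run 2. In the AP RFP+ gate of run 2, their ratio was 30.9 in intact and 15.4 in castrated cells. Cluster 7 had 24.4 and cluster 6 had 17.2, close to these. In the migratory dendritic cell-like cluster 5, Epcam stood at 424 CPM (exact Poisson 95% interval 362 to 494) with 61.7 CPM of keratins, or 687.5 Epcam UMIs per 100 keratin UMIs. The cDC1-like cluster 1 had 83.2 CPM (67.9 to 101) and a ratio of 147, whereas the macrophage-like cluster 3 had 25.0 CPM (10.8 to 49.4) and a ratio of 28.6. Thinned to 2000 UMIs per cell, 36.3% of cluster 5 cells would hold an Epcam UMI and 11.95% a keratin UMI, beside 10.8% and 10.9% in cluster 1 and 4.98% and 14.6% in cluster 3. Unthinned, 30 of 52 cells of cluster 5 had an Epcam UMI (median 6601.5 UMIs) and 7 of 65 of cluster 3 (median 4207 UMIs). The ratio was highest in cluster 5, but it was also 119 in cluster 2 and 110 in cluster 8. It was 71.4 in cluster 11, 52.4 in cluster 9, 15.2 in cluster 4 and 14.3 in cluster 10. The source of the Epcam transcripts in these cells was not tested.

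**Figure D3:**
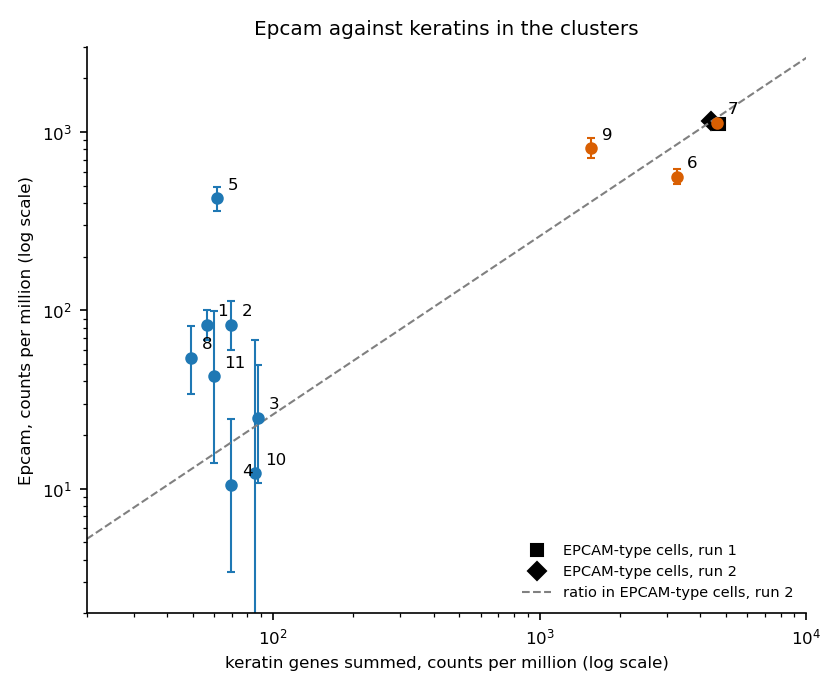
Epcam (vertical, CPM with exact Poisson 95% intervals) against the sum of 5 keratins (horizontal, CPM), both on log scales, for the 11 clusters. Orange points are clusters 6, 7 and 9, black symbols are EPCAM-type cells of runs 1 and 2, and the dashed line is the ratio in EPCAM-type cells of run 2. Cluster 5 lies far above the line at 424 CPM of Epcam, while clusters 3, 4 and 10 lie on or near it.

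Runx1 was present both in members and in the sorted RFP+ epithelial cells, and which of them held more differed between runs and treatments. In the intact AP RFP+ gate, it stood at 172 CPM in members of run 1 (127 to 226) and at 155 in those of run 2 (136 to 177), beside 88.7 CPM (82.1 to 95.7) and 151 (138 to 165) in EPCAM-type cells. In castrated AP RFP+ cells of run 2, it was 114 CPM (85.5 to 150) in members and 175 (163 to 187) in EPCAM-type cells. EPCAM-type cells of the AP RFP- gate were at 34.9 and 31.0 CPM, and at 81.9 in run 3. Among the clusters Runx1 ranged from 30.9 CPM in cluster 5 to 225 in cluster 3. The counts come from 3′ ends and do not separate transcripts of P1 from those of P2.

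Of the other genes of the family, Runx3 and Cbfb were higher in members than in EPCAM-type cells, and Runx2 was not. Runx3, which dendritic cells use, stood at 113 and 242 CPM in intact AP RFP+ members against 0.133 and 2.22 CPM in EPCAM-type cells, and at 573 CPM in cluster 11, 334 in cluster 5 and 310 in cluster 1. Runx2 stood at 27.5 CPM (11.9 to 54.1) and 5.42 (2.34 to 10.7) in intact AP RFP+ members, beside 21.7 (18.5 to 25.3) and 7.61 (4.88 to 11.3) in EPCAM-type cells, with overlapping intervals. It reached 368 CPM in the plasmacytoid dendritic cell-like cluster 11 and was between 2.69 and 49.0 CPM in the other clusters. Cbfb, the shared partner of the RUNX proteins, stood at 54.9 and 61.0 CPM in these members and at 17.5 CPM in both sums of EPCAM-type cells. The glucocorticoid receptor gene Nr3c1 was at 64.1 and 45.9 CPM in members outside clusters 6, 7 and 9.

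Whether members differed between castrated and intact mice could be asked only within run 2, with 1 library and without a test. Over all assigned members (191 intact and 66 castrated cells), 4.97% of 7319 genes with at least 20 UMIs were at least 2-fold higher in castrated and 10.6% at least 2-fold lower. The 20 genes with the largest rises and falls were taken among those that moved the same way within AP RFP+ cells. Of these 20, 14 were higher in EPCAM-type cells than in members, such as Krt14 (370 intact and 1 castrated UMIs) and Scgb2b27 (39 and 726). The other 6 were Igha, Gm34084, Ucp1, Slpi, Gzma and Plet1, of which the immunoglobulin heavy chain gene Igha had 1 and 49 UMIs. Lobes and clusters entered both groups in different parts, so that the comparison was narrowed to the AP RFP+ gate, with 177 intact cells (1474952 UMIs) and 41 castrated cells (454274 UMIs). The 33 intact AP RFP+ members of run 1 are given beside them.

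Within AP RFP+ members, macrophage genes were lower in castrated than in intact cells. C1qa, a subunit of the first complement component, stood at 927 CPM in intact members of run 1, 523 in those of run 2 and 83.6 in castrated members, a log2 ratio of castrated to intact in run 2 of -2.64 (exact 95% interval -3.15 to -2.17, counting error only). Csf1r stood at 206, 88.1 and 11.01 CPM and Mrc1 at 199, 159 and 22.0. Lyz2 stood at 14317, 2797 and 621 CPM, and Apoe at 4363, 2534 and 141. Both intact sums lay above the castrated one for each of these genes.

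Of the macrophage list, 8 of 10 genes with at least 20 UMIs were at least 2-fold lower in castrated AP RFP+ members and 0 higher, beside 15.1% lower and 4.19% higher of all 6585 genes. Their median log2 ratio was -2.61, beside -0.14 over all genes. The complement list had 6 of 6 lower, among them C1qa, C1qb and C1qc, which are in the macrophage list as well. Few cells carried this pattern. At least 3 C1q UMIs were seen in 7 of 33 intact members of run 1 (21.2%), 32 of 177 of run 2 (18.1%) and 1 of 41 castrated members (2.44%, exact binomial 95% interval 0.0617 to 12.9), with median depths of 7241, 7018 and 10373 UMIs. In EPCAM-type cells of the same gates the share was 0.251%, 0.457% and 1.74% (0.641 to 3.75). With 1 such cell among the castrated members, whether their share differed from that of the EPCAM-type cells cannot be told. Thinned to 2000 UMIs, a C1q UMI would be seen in 21.2%, 18.1% and 3.09% of members. Fewer cells of a type and fewer transcripts per cell cannot be told apart in these sums, and neither was tested. The make-up by cluster differed in run 2. Cluster 3 held 23 of the 177 intact and 1 of the 41 castrated members. Cluster 2 held 29 and 0 of them, and cluster 4 held 13 and 0. Cluster 1 held 67 and 23, and cluster 5 held 12 and 7. When only members under 7500 UMIs were kept, 98 intact and 7 castrated cells, 37 of the 38 castrated C1qa UMIs remained and the log2 ratio was -0.15, with 25 of 98 and 1 of 7 cells holding at least 3 C1q UMIs. Over all assigned members under that limit (105 and 15 cells), C1qa turned to 0.16.

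Chemokines that draw neutrophils and monocytes were also lower. Cxcl2 stood at 5691 and 1874 CPM in intact members of runs 1 and 2 and at 117 in castrated members (log2 ratio -4.01, -4.43 to -3.61), Ccl4 at 951, 331 and 48.4, and Ccl6 at 1733, 326 and 35.2. In the chemokine list, 10 of 16 genes were at least 2-fold lower and 3 higher. The 3 were Ccl5, at 0, 46.1 and 150 CPM, Ccl17, at 0, 67.1 and 288, and Cxcl10, at 309, 91.5 and 280. For Cxcl10 the castrated value lay between both intact sums. Cd14, the co-receptor for lipopolysaccharide, stood at 1641, 1165 and 209 CPM (log2 ratio -2.48, -2.79 to -2.18).

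Genes of antigen presentation differed little. Cd74 stood at 22250, 22799 and 21432 CPM (log2 ratio -0.09, -0.12 to -0.06) and H2-Aa at 4538, 4942 and 4957 (0.00, -0.06 to 0.07). Of the MHC class II list, 0 of 10 genes passed 2-fold in either direction. Il1b stood at 2808, 2265 and 2058 CPM.

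Some dendritic cell genes were higher in castrated AP RFP+ members, but most genes of their lists stayed within 2-fold. Of the cDC1 list, 1 of 6 genes was at least 2-fold higher and 0 lower (median log2 ratio 0.62), and of the migratory dendritic cell list 1 of 3 higher and 0 lower (median 0.55). Itgae, the integrin CD103, stood at 10.3, 52.9 and 214 CPM (log2 ratio 2.01, 1.57 to 2.46), Cd207 at 20.6, 85.4 and 332 (1.96, 1.61 to 2.31), Ccr7 at 10.3, 112 and 445 (1.99, 1.69 to 2.30) and Cd274, the checkpoint ligand PD-L1, at 37.8, 22.4 and 134 (2.59, 1.95 to 3.24). Intact values of Itgae, Cd207 and Ccr7 were also lower in run 1 than in run 2. Among the 98 intact and 7 castrated members under 7500 UMIs, the log2 ratio of Cd207 turned to -0.49 and that of Itgae to -0.03, from 4 and 2 castrated UMIs, whereas Ccr7 was at 2.56 and Cd274 at 2.35. An Xcr1 or Clec9a UMI was seen in 3 of 33 intact members of run 1, 88 of 177 of run 2 (49.7%) and 28 of 41 castrated members (68.3%, 51.9 to 81.9). In EPCAM-type cells these shares were 0, 0.913% and 0.580%. After thinning they were 4.91%, 29.1% and 36.8% of members. Cd209a or Mgl2, genes of the cluster 2 cells, reached 3 UMIs in 17 of 33, 50 of 177 and 6 of 41 members.

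**Figure D4:**
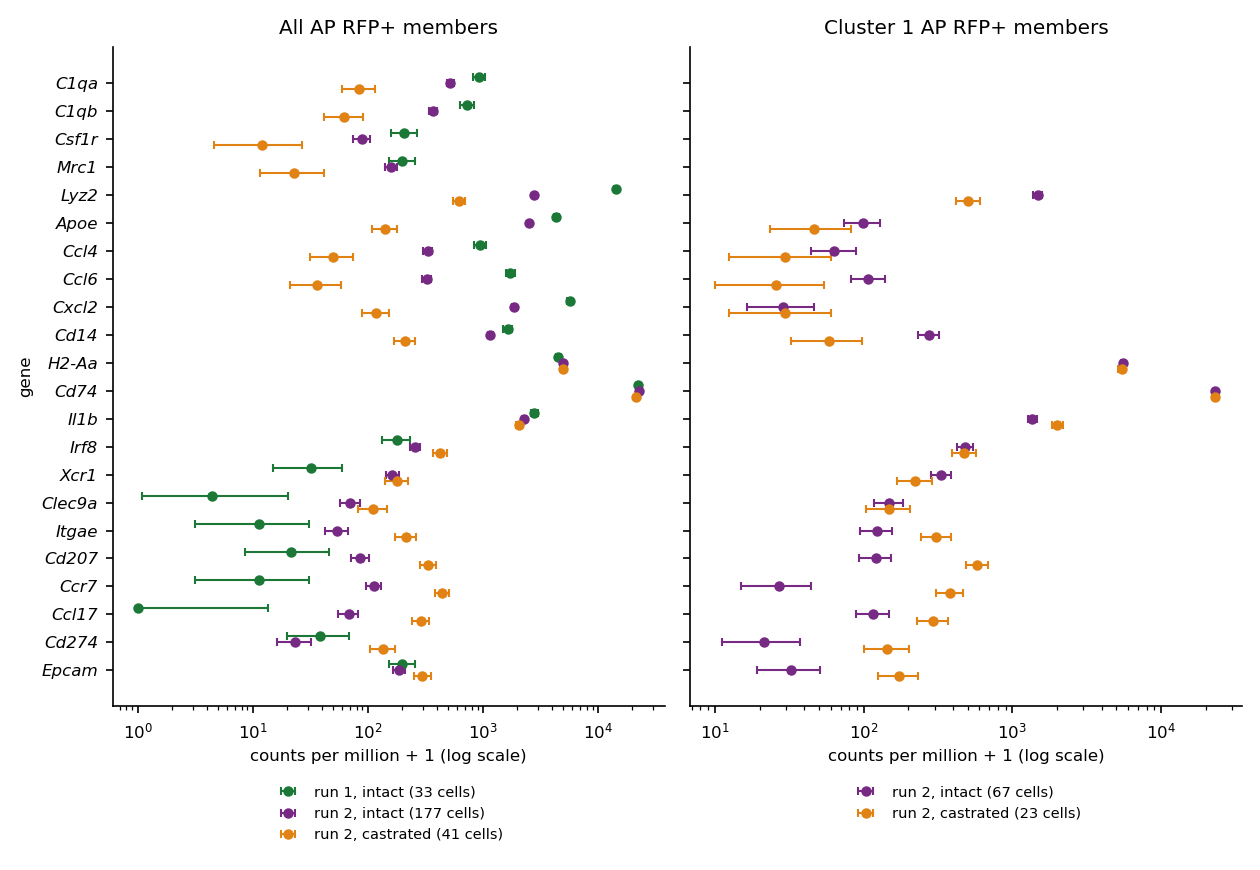
CPM plus 1 (log scale) of listed genes in AP RFP+ members (left) of intact mice in runs 1 and 2 and of castrated mice in run 2, and in the AP RFP+ cells of cluster 1 in run 2 (right, genes with at least 20 UMIs there). Bars are exact Poisson 95% intervals. On the left, castrated values lie below both intact values for C1qa to Cd14 and above both for Irf8, Clec9a, Itgae, Cd207 and Ccr7, with H2-Aa and Cd74 close together; on the right, Ccr7, Cd274, Epcam and Cd207 are higher in castrated cells.

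The comparison was also made within cluster 1, which supplied 67 of the 177 intact and 23 of the 41 castrated AP RFP+ members of run 2. At a clustering resolution of 1.0, 110 of its 138 cells stayed in 1 cluster. It may therefore hold more than 1 kind or state of cell, and a different mix of these between treatments was not tested. Here 5.34% of 3595 genes were at least 2-fold higher in castrated and 8.93% lower. Of the cDC1 markers, Clec9a stood at 147 CPM in both (log2 ratio 0.00, -0.61 to 0.59), Irf8 at 481 and 475, Cadm1 at 175 and 160, and Xcr1 at 331 and 221 (-0.58, -1.05 to -0.14). Itgae was the only 1 of the 6 cDC1 genes past 2-fold, at 122 and 307 CPM (1.34, 0.84 to 1.84). Cd74 was level at 23040 and 23097 CPM.

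Single genes were higher in castrated cluster 1 cells, while of the migratory dendritic cell list 1 of 3 genes was (median log2 ratio -0.14). Among genes with at least 100 UMIs, the largest differences were in Plet1, a membrane protein, with 12 and 122 UMIs (log2 ratio 4.50, 3.64 to 5.49), Ccr7, with 14 and 92 (3.87, 3.05 to 4.80), Rgs1, a regulator of chemokine receptor signalling, with 82 and 241 (2.71, 2.34 to 3.09), the tight junction gene Cldn1, with 26 and 74 (2.66, 2.00 to 3.37), and Cd207, with 65 and 142 (2.28, 1.85 to 2.73). Cd207 was among the genes that define the cluster. Plet1 was also higher in castrated than in intact EPCAM-type cells of the same gate, at 274 and 67.3 CPM, whereas Cldn1 was lower there, at 12.4 and 39.7 CPM, and Ccr7 was near 0, at 2.32 and 1.90 CPM. Cd274 was at 20.3 and 143 CPM (2.82, 1.81 to 3.95).

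Single cells of cluster 1 gave the same picture in shares. A Plet1 UMI was seen in 10 of 67 intact and 16 of 23 castrated cells, or 4.49% and 47.0% after thinning to 2000 UMIs, a Ccr7 UMI in 7 of 67 and 12 of 23 (3.70% and 34.0%), and a Cldn1 UMI in 17 of 67 and 21 of 23 (8.51% and 44.4%). In all EPCAM-type cells of the gates, the thinned Plet1 share was 10.1% in intact and 30.8% in castrated cells, that of Cldn1 was 9.02% and 3.11%, and that of Ccr7 0.378% and 0.323%. Median depth was 8065 UMIs in intact and 10438 in castrated cluster 1 cells. Epcam itself stood at 31.3 CPM (18.2 to 50.1) in intact and 172 CPM (124 to 233) in castrated cells (2.46, 1.61 to 3.36), while the keratins stood at 62.6 and 24.6 CPM. There were thus 50 Epcam UMIs per 100 keratin UMIs in intact cells (26.2 to 92.0, from 17 Epcam and 34 keratin UMIs). The ratio was 700 in castrated cells (296 to 2015), which rests on 42 Epcam and only 6 keratin UMIs. In EPCAM-type cells it was 30.9 and 15.4.

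Other genes were lower in castrated cluster 1 cells. S100a10 had 165 intact and 10 castrated UMIs (log2 ratio -2.89, -3.98 to -1.98), the leukotriene B4 receptor gene Ltb4r1 131 and 12 (-2.30, -3.28 to -1.44), Cd14 149 and 14 (-2.26, -3.16 to -1.47), and Lyz2 801 and 123 (-1.55, -1.84 to -1.27). The monocyte chemokine receptor gene Ccr2 stood at 217 and 94.2 CPM (-1.21, -1.92 to -0.55). S100a10 was lower in castrated EPCAM-type cells too, at 760 and 287 CPM, while Ltb4r1, at 1.59 and 0 CPM, and Lyz2, at 15.9 and 5.05 CPM, were near 0 there. Fcer1g, which the rule used, stood at 357 and 127 CPM. Cells chosen by an Xcr1 or Clec9a UMI instead of by cluster (88 intact and 28 castrated) gave log2 ratios of 3.82 for Plet1, 2.66 for Ccr7, 2.25 for Cldn1, -2.49 for Cd14 and -3.15 for S100a10. For Epcam the ratio was only 0.63, beside 2.46 in cluster 1. This choice overlaps the cluster, since 56 of 67 intact and 22 of 23 castrated cluster 1 cells had an Xcr1 UMI. Under 7500 UMIs, 29 intact and 3 castrated cells of cluster 1 remained. There the log2 ratios were 2.64 for Cldn1, 2.00 for Plet1, 1.06 for Rgs1, 0.18 for Cd207, 0.14 for Itgae, -1.56 for Cd14 and -0.60 for S100a10, and Ccr7 had 0 intact and 9 castrated UMIs.

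With 1 library of pooled mice, these intervals hold for the cells counted and not for mice. RFP- members (2 and 3 cells in runs 1 and 2) and VP members (2 and 9) were too few for the count tests between gates or lobes.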

How the data were processed

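The authors made the UMI count matrices with Cell Ranger 3.1.0 against mm10 (GRCm38), per the labels, with Seurat 3.1.5 also named there, and deposited counts of MULTI-seq tags with them. The 3 adult libraries were read as deposited, whole-number counts without normalisation. The study states an upper limit of 7500 UMIs per cell. It was applied here as 7500 detected genes, which kept 8532 cells, whereas the limit as stated keeps 2703 cells and 272 of the 564 members and was run as an alternative. Members were found by the rule given above, and cells were assigned to sorted populations with the tag thresholds that the study lists for each run. Members and gene lists were chosen with earlier results of these data known.

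CPM are counts per 1000000 UMIs summed over the cells named. Clusters were made from the members with scanpy 1.11.5 (2000 variable genes, 20 principal components, Leiden resolution 0.5). No cell was left out as a doublet, and Scrublet scores entered an alternative only. Intervals are exact Poisson, binomial or conditional at 95% and cover counting error only. Ratios against a count of 0 used a floor of 3 counts. The interval code was tested on simulated data. Shares were also given thinned to 2000 UMIs.

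Named genes were those of the rule, up to 6 of each list by mean CPM, the 15 leading genes against other cells in runs 1 and 2 (run 3 held 1 member), and the leading genes of clusters. In the treatment comparison they were listed genes and the 20 largest differences that went the same way within AP RFP+ cells. Differences within cluster 1 were named among genes with at least 100 UMIs, chosen after values were seen. Alternatives changed the rule, depth limit, tag call, library scaling with edgeR 4.0.16 and clustering.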

Additional observations from a re-analysis of the deposited data

How the results depend on the processing

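Leaving out runs moved the share of members over all runs between 3.19% and 8.95%, and the difference in the share without a tag between -9.56 and 5.40 points (1.09 without run 3). With the largest tag at 80% or more, that difference was 12.7 points and the RFP+ difference -7.01 points, from 5 and 9 members. With the upper limit of 7500 UMIs that the study's methods state, members were 12.5% and 12.8% of runs 1 and 2, and 45.8% of intact and 4.93% of castrated AP RFP+ cells. Genes at least 2-fold lower in castrated members then numbered 450, and over the 15 castrated members left the log2 ratios were -1.39 for Cd207, -0.34 for Itgae, -0.67 for Rgs1, 0.16 for C1qa, 0.11 for C1qb, 0.12 for C1qc and 1.11 for Apoe. The cause was not tested. Without members with 5 or more epithelial UMIs, run 2 held 7.39% members, without the highest 6% of Scrublet scores 8.93%, and without members with several tags or keratin UMIs 5.61% and 6.55% in runs 1 and 2 (chosen after seeing the data). Counts of 364 higher and 776 lower genes became 155 and 357 with at least 50 UMIs. They were 192 and 321 in AP RFP+ cells of cluster 1 and 217 and 488 in those with an Xcr1 or Clec9a UMI, where both the cells and the genes tested were fewer. The cause of these changes was not tested. H2-Aa turned to 0.0045 in AP RFP+ members and 0.015 in cells with an Xcr1 or Clec9a UMI, and in cluster 1 Cxcl2 was 0.054 and Cd74 0.0036. Scaling by TMM shifted all genes by 0.0487. Each result was compared once per alternative. Of these comparisons, 50 of main results and 140 of single genes stayed within the interval, direction or fold limit set for that kind of result. Another 17 of main results and 87 of single genes moved without turning, and 4 and 11 turned. Part of the first counts was fixed in advance. The minimum of 50 UMIs could not change the ratio of a single gene, so each gene stayed under it. A difference tested by permutation counted as staying unless its direction turned. The RFP+ differences of 40.1 points without run 1 and 20.2 without run 2 were therefore counted as staying. No paired count test between gates or lobes was possible because RFP- and VP members were too few to sum per run.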
